A study of Mus musculus with 2 samples.

Results

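Mucins and other secreted or membrane glycoproteins of the gut carry sugar chains that Golgi enzymes build step by step. The genes described here are 89 glycosyltransferase and sulfotransferase genes, chosen by symbol from the 18067 genes with values. The pattern took the Galnt, C1galt1, Gcnt, B3gnt, B3galt, B4galt, B4galnt, St3gal, St6gal, St6galnac, St8sia, Fut and Chst families, and no expression value entered the choice. It also takes enzymes that act mainly on glycolipids, N-glycans or proteoglycans, so the set is wider than mucin-type glycosylation. RNA-seq compared cells labelled as intestinal stem cells of the mouse small intestine in 2 genotypes. These were circBtnl1 wild-type (1 library) and circBtnl1 knockout (1 library), the circular RNA circBtnl1 being named after the butyrophilin-like gene Btnl1, and the stated aim was to find transcription factors that differ. Strain, age, the number of mice behind a library and how the cells were isolated were not given in the sources used here. With 1 library per genotype there was no replicate and no test, so every difference below lies between 2 libraries and cannot be set against the spread between mice.

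Mucin-type O-glycosylation starts when a polypeptide GalNAc-transferase of the GALNT family adds N-acetylgalactosamine (GalNAc) to a serine or threonine. Core enzymes then add galactose or N-acetylglucosamine (GlcNAc), alternating galactose and GlcNAc residues lengthen the chain, and sialic acid, fucose, GalNAc or sulfate caps it. In the intestine these chains give the mucus gel its bulk, feed and anchor bacteria and protect the protein core from proteases.

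Values are the authors' TPM (transcript abundance per length, as a share of each library scaled to 1000000), so levels can be compared between genes. Pairs of values give the wild-type library first and the knockout library after it. Log2 ratios are log2((knockout TPM + 0.1)/(wild-type TPM + 0.1)), which understates differences of low genes, and folds are plain TPM ratios, given where both libraries reached 0.5 TPM. Depth, estimated from the spacing of low values, was about 18500000 reads for wild-type (range 18500000 to 22750000 across length corrections), where a single read on a 2000-base transcript was worth about 0.056 TPM. The knockout depth was poorly determined: the estimate was 17500000 reads (range 16500000 to 19500000) with values whose rounding error stayed under 0.1 reads, and 35250000 (range 16500000 to 39000000) with a limit of 0.05 reads. Measured genes were those whose mean reached 1 TPM, 12666 in all, and their median log2 ratio was 0.39, a shift toward the knockout library that every ratio below contains unless it is given relative to that median gene. Levels of the stem cell markers varied, and Lgr5 (3.13 against 1.55 TPM) and Olfm4 (0.2 TPM against a listed 0) were low for this label. Of the 12 stem cell markers 10 were measured. Apart from Lgr5 and Olfm4 the markers ranged from Tnfrsf19 (0.32 against 0.62 TPM) to Prom1 (120 against 150 TPM). Between these, Slc12a2 stood at 55.2 against 62.1 TPM, Axin2 at 16.9 against 19.25 TPM, Smoc2 at 15.5 against 7.72 TPM and Rnf43 at 14.7 against 12.0 TPM. The differentiated-cell genes Zg16 and Krt20 stood at 8315 and 2065 TPM in the wild-type library. Small-intestinal products were uneven. The sucrase gene Sis stood at 0.05 against 0.29 TPM and the defensin gene Defa24 at 1.1 TPM against a listed 0. Lct, Apoa1 and Apoa4 of the enterocyte list and Lyz1 and Defa30 of the Paneth list were likewise not measured. Of these lists 9 of 13 and 3 of 6 genes were measured. The Paneth cell gene Ang4 stood at 583 against 2679 TPM and the fatty acid-binding protein gene Fabp2 at 135 against 757 TPM. In bulk RNA, fewer cells of a type and less RNA per cell cannot be told apart.

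Chain-extending enzymes differed most in summed level between the libraries, and all 10 measured members of the initiating family were within 2-fold. Of the 89 genes 58 were measured, and 31 lay below the floor. At least 2-fold higher in the knockout library were 9 of the 58 (15.5%), against 23.1% of all measured genes. At least 2-fold lower were 10 (17.2%), against 5.25% of all measured genes. Relative to the median gene 7 were higher (12.1%, all genes 13.5%) and 13 lower (22.4%, all genes 10.2%). The median log2 ratio of the 58 genes was 0.16, or -0.23 relative to the median gene. Summed over all 89 genes the level was 5720 against 3856 TPM, 1.48-fold lower in the knockout library, with log2 ratios from -0.57 as deposited to -0.96 under the scalings tried. The order of levels among the measured genes was largely shared by both libraries, with a Spearman correlation of 0.934 across these 58 genes and 0.899 across all measured genes. This is a description, since all points come from the same 2 libraries.

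**Figure D1:**
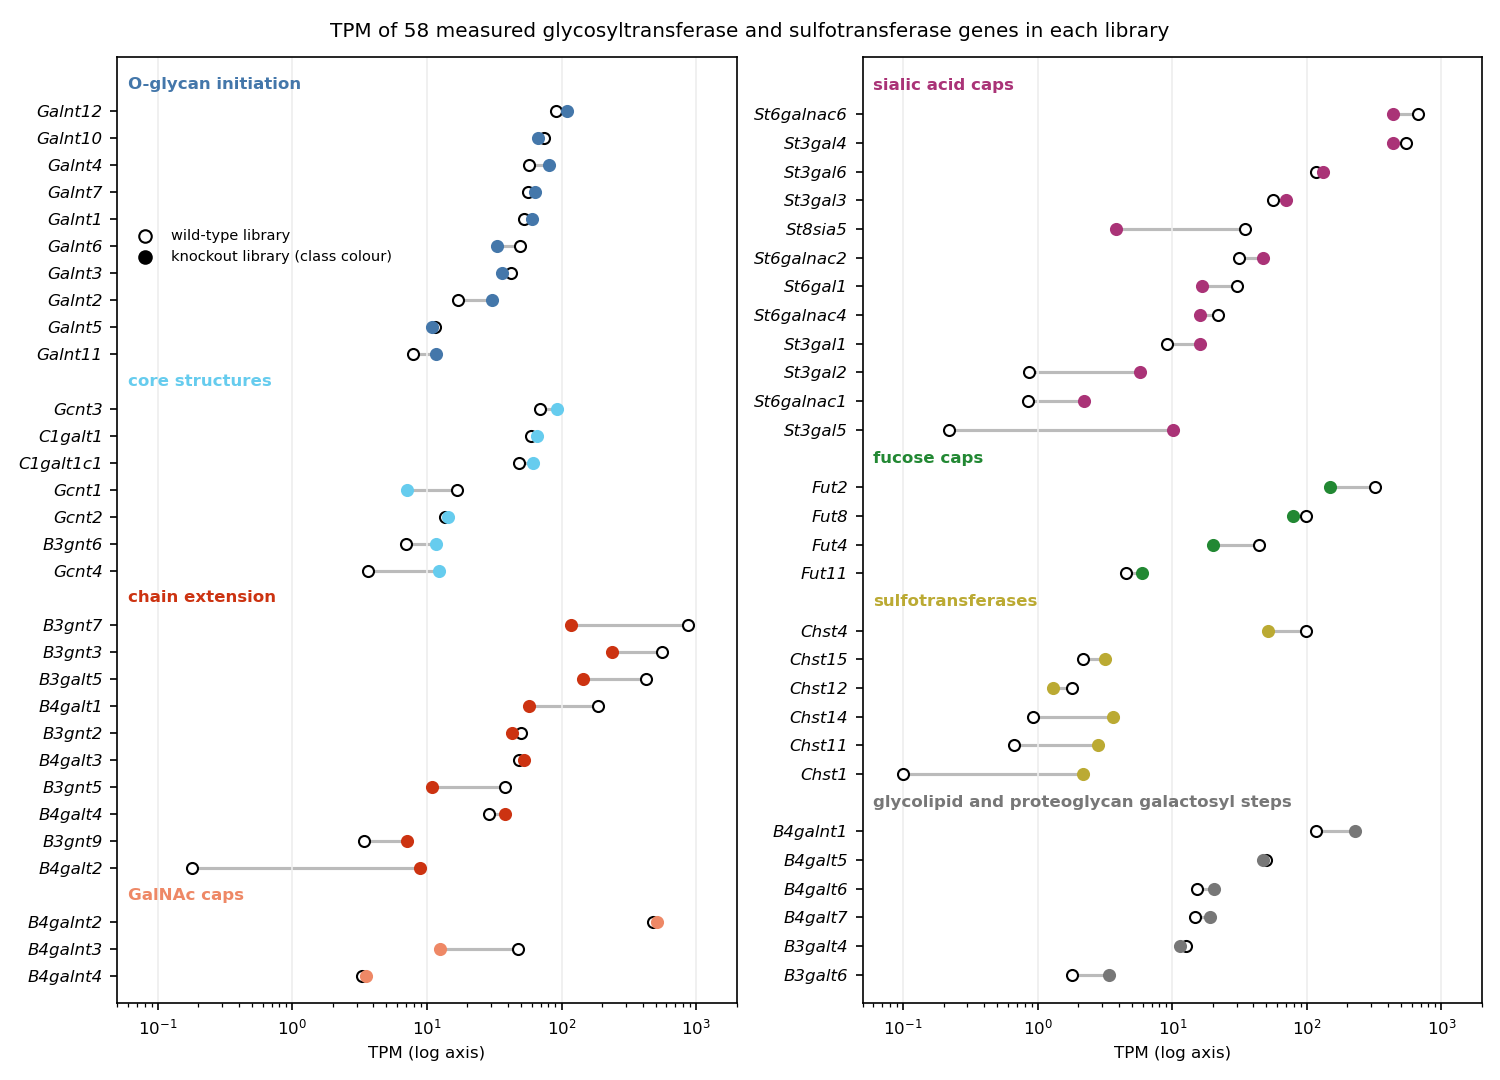
TPM on a log axis of the 58 measured genes, ordered within each enzyme class by the wild-type level, with open points for the wild-type and filled points for the knockout library. The 10 initiation genes have short lines, whereas B3gnt7 spans 872 to 118 TPM and St3gal5 0.22 to 10.2 TPM.

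The members at least 2-fold lower were among the more abundant ones. All 9 genes that were at least 2-fold higher had a mean below 10 TPM, and 7 of them stood under 1 TPM in the wild-type library. These 7 reached the floor only through the knockout library, so their count carries no weight as to direction. All 10 that were at least 2-fold lower had a mean above 10 TPM. Between 10 and 50 TPM, 5 of 20 members were at least 2-fold lower (25%) and 0 higher, whereas 3.22% of all genes in that range were lower and 19.4% higher. From 50 TPM upward, 5 of 22 members were lower (22.7%) and 0 higher, against 6.89% and 9.33% of all genes. Between 1 and 10 TPM the members tilted the other way, with 9 of 16 higher (56.2%), and so did all genes, with 38.9%.

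**Figure D2:**
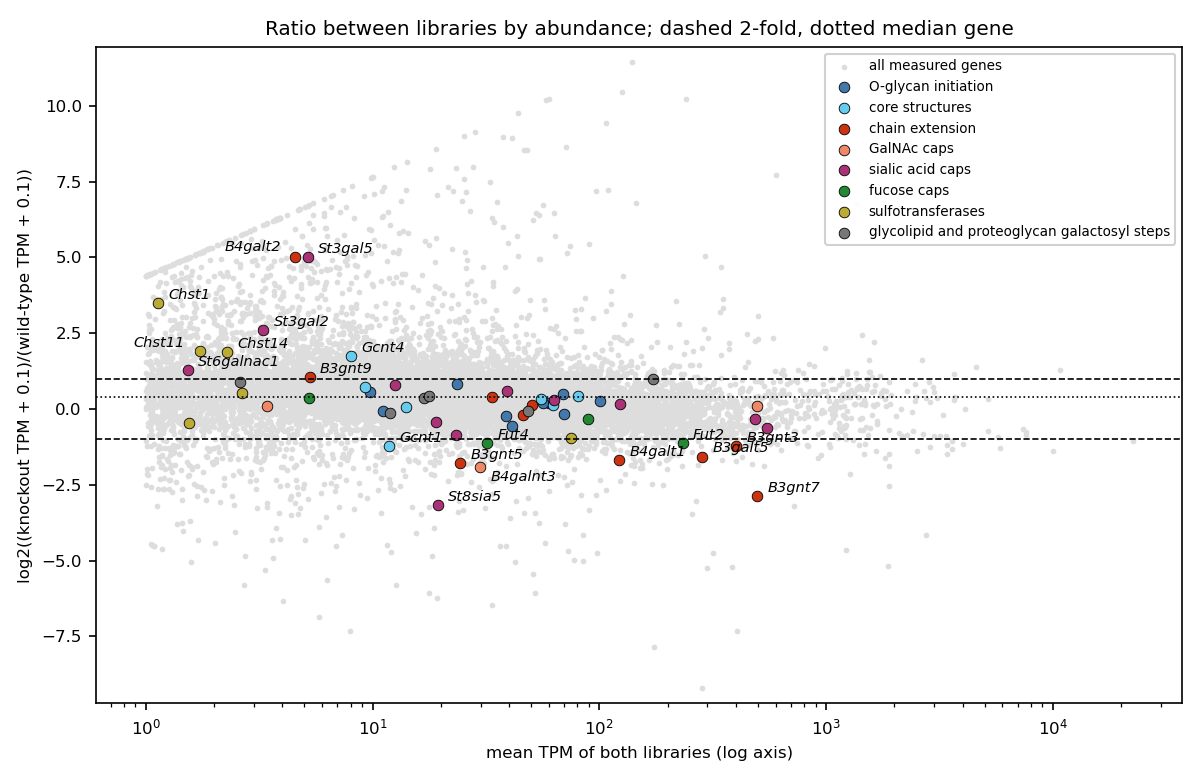
Log2 ratio of knockout over wild-type TPM against the mean TPM of both libraries (log axis), with all 12666 measured genes in grey and the 58 members coloured by class; dashed lines mark 2-fold and the dotted line the median gene. Members beyond the lower dashed line lie at means above 10 TPM, and those beyond the upper line at means below 10 TPM.

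The initiating GALNT genes were near equal in both libraries. Of 16 genes 10 were measured, and 0 of these were at least 2-fold higher or lower. Galnt12, an isoform known from human colon, was the most abundant in both, at 91.6 against 109 TPM. It was followed in the wild-type library by Galnt10 (73.9 against 66.5 TPM), which belongs with Galnt7 to the isoforms that prefer peptides already carrying GalNAc. Galnt7 itself stood at 55.9 against 63.5 TPM. Galnt4, also an enzyme of partly glycosylated peptides, stood at 57.3 against 80.6 TPM and took second place in the knockout library. Its gene lies within the span of Poc1b (27.8 against 28.9 TPM), so the division of reads between these genes is uncertain. Of the isoforms that act on bare peptides, Galnt1 stood at 52.8 against 60.3 TPM, and Galnt3 at 42.0 against 36.0 TPM. Galnt2 had the highest ratio of the class (17.1 against 30.2 TPM, 1.77-fold higher) and Galnt6 the lowest (48.8 against 33.3 TPM, 1.47-fold lower). Galnt5 (11.4 against 10.9 TPM) and Galnt11 (7.92 against 11.6 TPM) were the least abundant that were measured. The summed level was 460 against 504 TPM, a log2 ratio of 0.13 that turned to -0.26 relative to the median gene and also turned negative under trimmed mean and upper quartile scaling. Galnt9, Galnt13, Galnt14, Galnt15, Galnt16 and Galnt18 lay below the floor, from a listed 0 to 1.1 TPM.

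Core synthesis was within 2-fold apart from Gcnt1 and Gcnt4. C1galt1, which makes core 1 by adding galactose, stood at 59.8 against 65.2 TPM. Its obligatory chaperone Cosmc, encoded by C1galt1c1, stood at 48.6 against 61.6 TPM. B3gnt6, the core 3 synthase of the gut, was lower in level, at 7 against 11.6 TPM. Gcnt3, the mucin-type branching enzyme of cores 2 and 4, led the class in both libraries, at 68.6 against 92.9 TPM. The other core 2 enzymes had ratios of opposite sign: Gcnt1 stood at 16.7 against 7.07 TPM, 2.36-fold lower in the knockout library, and Gcnt4 at 3.62 against 12.4 TPM, 3.42-fold higher. Gcnt2, which branches polylactosamine into I antigen, stood at 13.7 against 14.3 TPM, and Gcnt7 lay below the floor (0.1 against 0.07 TPM). The class summed to 218 against 265 TPM, a log2 ratio of 0.28 that became -0.11 relative to the median gene, with the sign turned under trimmed mean and upper quartile scaling as well.

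Chain extension enzymes differed most in summed level. They summed to 2215 against 721 TPM, 3.07-fold lower in the knockout library (log2 ratio -1.62, or -2.01 relative to the median gene). Of 10 measured genes 5 were at least 2-fold lower and 2 at least 2-fold higher, against 5.25% and 23.1% of all measured genes. Relative to the median gene 5 were lower and 1 higher, against 10.2% and 13.5%. B3gnt7, which extends galactose-GlcNAc chains of the keratan sulfate type, stood at 872 against 118 TPM (7.38-fold lower, log2 ratio -2.88). It held 39.4% of the class in the wild-type library and 16.4% in the knockout library, where it took the third place after B3gnt3 and B3galt5. B3gnt3, which extends core 1, stood at 561 against 239 TPM (2.35-fold lower). B3galt5, which makes the type 1 chains that carry Lewis antigens, stood at 426 against 143 TPM (2.97-fold lower). B4galt1, the main galactosyltransferase of type 2 chains, stood at 187 against 57.6 TPM (3.24-fold lower). B3gnt5, which starts lacto-series glycolipids, stood at 37.8 against 10.97 TPM (3.44-fold lower). All 5 were at least 2-fold lower under every scaling tried. The enterocyte marker list was lower as well (6 of 9 genes at least 2-fold, median -1.17), and its part in this difference was not tested.

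Relatives of these enzymes were within 2-fold or higher. B3gnt2, the broad polylactosamine synthase, stood at 49.6 against 43.0 TPM, B4galt3 at 48.2 against 53.0 TPM and B4galt4 at 29.0 against 38.1 TPM, all within 2-fold. B4galt2, another type 2 galactosyltransferase, was near 0 in the wild-type library, at 0.18 against 8.93 TPM. The wild-type value is worth only a few reads, so no fold is given, and the log2 ratio of 5.01 depends on the added constant. B4galt2 reached the floor only through the knockout library, so its call carries no weight as to direction. B3gnt9 stood at 3.4 against 7.15 TPM, 2.1-fold higher, but within 2-fold relative to the median gene. It overlaps a second protein-coding gene, D230025D16Rik (10.2 against 16.9 TPM), so its reads may be divided. Below the floor lay B3galt1 (0 in both), B3galt2, B3gnt4 and B3gnt8, the highest of them at 0.95 TPM.

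**Figure D3:**
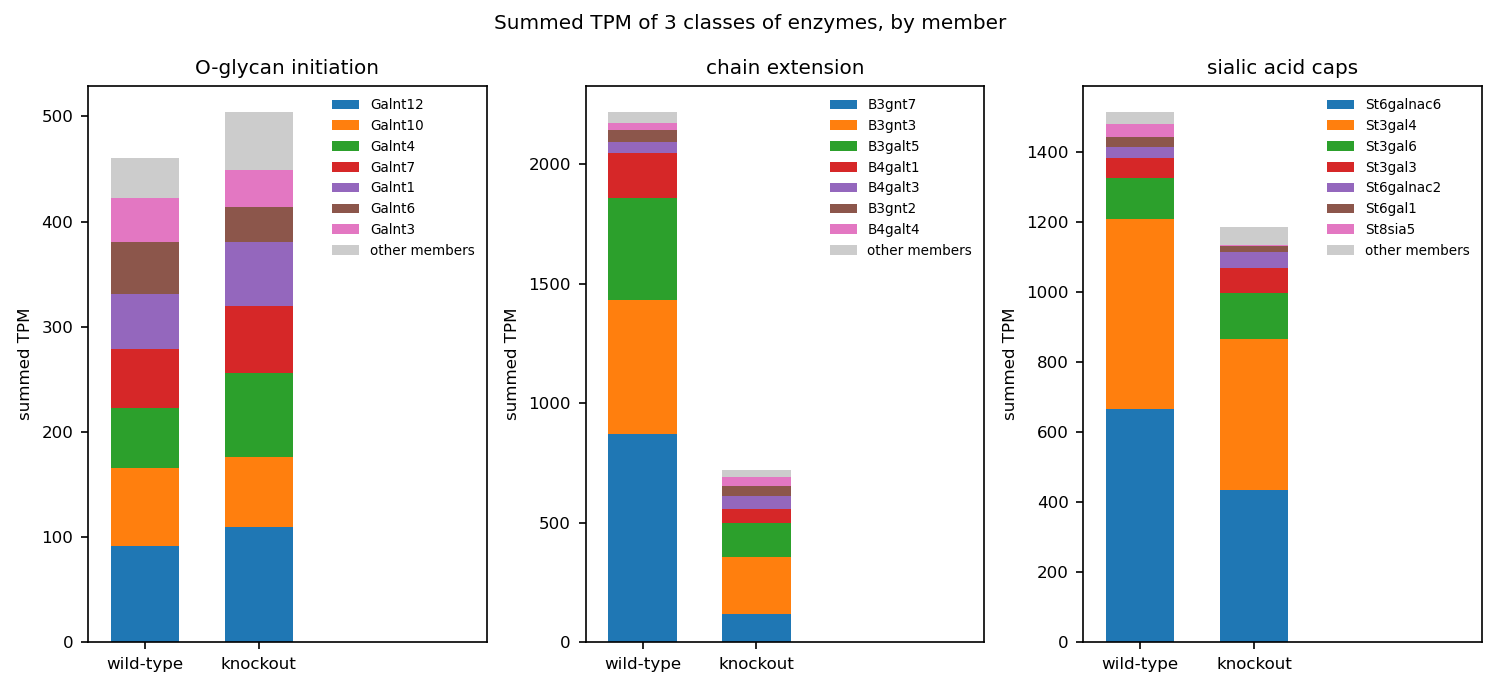
Summed TPM of the initiating, chain-extending and sialic acid-adding enzymes in the wild-type and knockout libraries, each bar stacked by member. The chain extension bars are 2215 and 721 TPM high, and the initiation bars 460 and 504 TPM.

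The promoters of 4 of the 5 lower chain extension genes are shown because these genes share a direction. Only genes with exactly 1 start in the RefSeq promoter table used were taken, which left out B3galt5. Each runs from 250 bases before to 50 after the only start listed for the gene in the RefSeq promoter table used (GRCm38.p6), 5′ to 3′ on the strand of the gene. RefSeq's gene span reaches further upstream of the listed start for B3gnt3 (to position 71702626) and B3gnt5 (from position 19760192), so other starts are possible. Capitals mark matches, on either strand, to any of the motifs named after the sequences.
B3gnt7 (chr1:86302971-86303270, plus strand): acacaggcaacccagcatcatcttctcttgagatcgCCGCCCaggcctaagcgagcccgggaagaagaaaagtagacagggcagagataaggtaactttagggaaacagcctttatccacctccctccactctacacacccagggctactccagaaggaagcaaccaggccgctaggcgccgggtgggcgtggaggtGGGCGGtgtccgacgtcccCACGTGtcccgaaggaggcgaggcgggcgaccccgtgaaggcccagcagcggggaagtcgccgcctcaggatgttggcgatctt
B3gnt5 (chr16:19759984-19760283, plus strand): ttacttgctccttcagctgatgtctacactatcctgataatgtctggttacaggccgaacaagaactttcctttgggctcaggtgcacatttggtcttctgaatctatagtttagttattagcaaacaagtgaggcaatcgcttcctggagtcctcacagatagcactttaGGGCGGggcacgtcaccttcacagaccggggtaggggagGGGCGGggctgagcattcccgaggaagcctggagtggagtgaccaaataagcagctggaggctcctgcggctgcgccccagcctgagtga
B4galt1 (chr4:40853935-40854234, minus strand): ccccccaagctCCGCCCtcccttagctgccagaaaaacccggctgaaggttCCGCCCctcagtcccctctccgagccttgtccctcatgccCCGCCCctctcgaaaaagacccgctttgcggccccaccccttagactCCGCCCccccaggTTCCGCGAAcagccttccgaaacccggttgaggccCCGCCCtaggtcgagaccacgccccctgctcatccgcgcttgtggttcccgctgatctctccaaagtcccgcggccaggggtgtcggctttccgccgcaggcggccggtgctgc
B3gnt3 (chr8:71701751-71702050, minus strand): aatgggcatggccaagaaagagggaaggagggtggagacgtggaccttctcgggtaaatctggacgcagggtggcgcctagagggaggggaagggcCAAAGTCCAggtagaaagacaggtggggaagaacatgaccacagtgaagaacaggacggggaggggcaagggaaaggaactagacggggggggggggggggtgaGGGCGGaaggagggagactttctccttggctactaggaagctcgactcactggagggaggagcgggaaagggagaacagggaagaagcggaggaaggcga
Motifs searched were the GC box written as GGGCGG, the E-box written as CACGTG, the TATA box written as TATAAA, a STAT-type site written as TTCNNNGAA, an HNF4-type site written as CAAAGTCCA, a CDX-type site written as TTTATNNC and an ATF4-type site written as TGATGNAA. Matches of different motifs overlapped at 0 places in these promoters. GGGCGG was in all 4 promoters, with 2 matches in B3gnt7, 2 in B3gnt5, 5 in B4galt1 and 1 in B3gnt3, and it was in 60.8% of the 12896 promoters of measured genes. B3gnt7 held CACGTG, which 9.71% of those promoters hold, 34 bases before its start. B4galt1 held TTCNNNGAA (6.86% of promoters) and B3gnt3 held CAAAGTCCA (0.473%), the latter beginning 154 bases before the listed start. The TATA box, CDX-type and ATF4-type letters were not in these 4 windows, and 7.79%, 7.69% and 2.39% of promoters hold them. These matches are letters in a window and not binding sites. GC content was 62% for B3gnt7, 53.3% for B3gnt5, 68.3% for B4galt1 and 60.3% for B3gnt3, beside a median of 60.3% over all promoters of measured genes.

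Caps made of GalNAc were dominated by a single gene. B4galnt2, which makes the Sda blood group structure on gut glycoproteins, stood at 479 against 512 TPM and held 90.5% and 97% of the class. B4galnt3, which makes GalNAc-GlcNAc (LacdiNAc) ends, stood at 47.2 against 12.5 TPM, 3.77-fold lower in the knockout library. B4galnt4, its paralog, was low in both at 3.29 against 3.55 TPM.

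Sialic acid-adding enzymes differed chiefly among the less abundant ones. The abundant members were within 2-fold as deposited: St6galnac6, known for ganglioside synthesis, at 666 against 434 TPM (log2 ratio -0.62, but past 2-fold at -1.01 relative to the median gene), and St3gal4, which caps galactose of type 2 chains, at 544 against 433 TPM. These held 44% and 35.9% of the class in the wild-type library and stayed first and second in the knockout library. St6galnac4 lies directly beside St6galnac6 on chromosome 2 (32587078 to 32599696 and 32599709 to 32620809, GRCm38) and stood at 21.9 against 16.1 TPM. St3gal6 (116 against 131 TPM) and St3gal3 (56.4 against 69.6 TPM) cap galactose as St3gal4 does, and St3gal6 overlaps Dcbld2 (2.58 against 10.2 TPM), so its reads may be divided. The enzymes of the O-glycan core were lower in level. St3gal1, which sialylates core 1, stood at 9.15 against 16.0 TPM, St6galnac2 at 31.2 against 47.5 TPM, and St6galnac1, the sialyl-Tn synthase of goblet cell mucin, at 0.85 against 2.22 TPM (2.61-fold higher). St6galnac1 was within 2-fold relative to the median gene.

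St8sia5, St3gal5 and St3gal2, which act on gangliosides, had the largest ratios of the sialic acid class. St8sia5, which adds a further sialic acid to gangliosides, stood at 34.9 against 3.81 TPM, 9.16-fold lower in the knockout library, the lowest log2 ratio of the 58 genes (-3.16). St3gal5, the GM3 synthase that opens the ganglioside pathway, was near 0 in the wild-type library, at 0.22 against 10.2 TPM. Its log2 ratio of 5.0 depends on the added constant and was 3.19 with a pseudocount of 1. St3gal2, which sialylates gangliosides and core 1, stood at 0.86 against 5.74 TPM, 6.67-fold higher. Both St3gal5 and St3gal2 reached the floor only through the knockout library, so their calls carry no weight as to direction. St6gal1, which caps N-glycans, stood at 30.2 against 16.5 TPM, 1.83-fold lower and past 2-fold only relative to the median gene. Of 20 genes in the class 12 were measured. Below the floor were St6gal2, St6galnac3, St6galnac5, St8sia1, St8sia2, St8sia3, St8sia4 and St8sia6, of which St8sia1, the GD3 synthase, was highest at 0.69 against 0.38 TPM and St8sia3 was listed at 0 in both libraries. The class summed to 1513 against 1187 TPM, 1.27-fold lower.

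Fucose caps were lower in the knockout library through Fut2 and Fut4. Fut2, the secretor enzyme that puts the H antigen on gut mucins, stood at 319 against 148 TPM (2.16-fold lower). Fut4, an enzyme of Lewis x type structures, stood at 43.8 against 20.2 TPM (2.17-fold lower). Fut8, which fucosylates the core of N-glycans, stood at 99.1 against 78.5 TPM, and Fut11 at 4.55 against 5.94 TPM. Below the floor, Fut1, the other H antigen enzyme, stood at 0.66 against 1.09 TPM, Fut9 at 0.63 against 0.26 TPM, Fut7 at a listed 0 against 0.26 TPM and Fut10 at 0.08 against 1.37 TPM. The class summed to 468 against 255 TPM, and Fut2 held 68.2% of it in the wild-type library and 57.8% in the knockout library.

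Sulfotransferases were split between a single abundant enzyme of mucin-like chains and low enzymes of proteoglycans. Chst4, which sulfates GlcNAc at the end of O-glycan branches, held 91.7% of the class in the wild-type library and 77.8% in the knockout library, at 99.0 against 51.3 TPM. Its log2 ratio of -0.95 lay just short of 2-fold, and relative to the median gene it was -1.34. The other GlcNAc sulfotransferases, Chst2, Chst5 and Chst7, were at or under 0.17 TPM in both libraries. Of the measured enzymes of chondroitin, dermatan and keratan sulfate 3 of 5 were at least 2-fold higher in the knockout library, where 38.9% of all genes with a mean between 1 and 10 TPM were higher. All 3 reached the floor only through the knockout library. Chst11, a chondroitin 4-sulfotransferase, stood at 0.67 against 2.81 TPM (4.19-fold higher), Chst14, which acts on dermatan sulfate, at 0.92 against 3.65 TPM (3.97-fold higher), and Chst1, which sulfates galactose of keratan sulfate, at 0.1 against 2.16 TPM. Chst15 (2.16 against 3.14 TPM) and Chst12 (1.81 against 1.3 TPM) were within 2-fold. Chst3, Chst8, Chst9, Chst10 and Chst13 lay below the floor, the highest of them Chst13 at 1.56 against 0.28 TPM. The median log2 ratio of the 6 measured genes was 1.20, while the ratio of the summed level had the opposite sign (108 against 65.9 TPM, log2 ratio -0.71), since Chst4 makes up most of the sum. Fibroblast and muscle markers were mixed, with 4 of 8 at least 2-fold higher and 2 lower. They summed to 60.5 against 292 TPM, mostly through Vim and Col1a2, and their part in the higher values was not tested.

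Galactose and GalNAc transfer to glycolipids and to the proteoglycan linker was within 2-fold for all 6 genes in TPM. B4galnt1, which makes GM2 and related gangliosides, was the most abundant of the 6 genes at 116 against 229 TPM, 1.98-fold higher and just under the threshold (log2 ratio 0.99), which it passed in FPKM (1.05). It overlaps Slc26a10 (0.92 against 2.53 TPM). The lactosylceramide synthases B4galt5 and B4galt6 stood at 49.6 against 47.5 TPM and 15.1 against 20.3 TPM. B3galt4, which makes GM1, stood at 12.6 against 11.4 TPM, and its gene lies 426 kb from Btnl1 on chromosome 17 (33949912 to 33951488, GRCm38). B4galt7 (14.7 against 18.9 TPM) and B3galt6 (1.79 against 3.4 TPM) build the linker of proteoglycans. The class summed to 210 against 331 TPM, 1.58-fold higher, with a log2 ratio of 0.27 relative to the median gene.

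Most genes of the mucin proteins that carry these chains were lower in the knockout library. Of 7 measured genes of the list 4 were at least 2-fold lower and 0 higher, with a median log2 ratio of -1.26. Among all measured genes 5.25% were lower and 23.1% higher. Muc1, a membrane mucin, stood at 99.8 against 2.21 TPM (45.1-fold lower), Muc4 at 132.7 against 42.3 TPM, Muc13 at 3645 against 1397 TPM and Muc3 at 4061 against 1696 TPM. Muc2, the gel-forming mucin of goblet cells, was within 2-fold at 2663 against 1534.5 TPM, but lower relative to the median gene (log2 ratio -1.19). It was named after its value was seen. Cd164 (207 against 189 TPM) and Muc20 (4.06 against 2.97 TPM) had the highest ratios of the list.

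The supply of donors was within 2-fold for nearly all genes. Of 23 measured genes of sugar nucleotide synthesis 2 were at least 2-fold higher and 0 lower, with a median log2 ratio of 0.19. Relative to the median gene 0 were higher and 2 lower. Among all measured genes 23.1% were higher and 5.25% lower, or 13.5% and 10.2% relative to the median gene. Ugdh, which makes UDP-glucuronic acid, stood at 174 against 366 TPM, and Gnpnat1, of the UDP-GlcNAc pathway, at 82.4 against 177 TPM. Nans, the sialic acid synthase, stood at 456 against 288 TPM, Gmds, of GDP-fucose synthesis, at 499 against 349 TPM, and Gmppb at 72.4 against 42.1 TPM. Of 15 Golgi donor transporters 0 were at least 2-fold higher or lower (median 0.11), and 2 were lower relative to the median gene. The GDP-fucose transporter gene Slc35c1 stood at 373 against 201 TPM, the UDP-galactose transporter gene Slc35a2 at 114 against 65.8 TPM, and the CMP-sialic acid transporter gene Slc35a1 at 59.2 against 98.7 TPM. Slc35b1 stood at 192 against 162 TPM and Slc35d2 at 5.01 against 9.13 TPM.

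A further list held glycan enzymes that the symbol pattern leaves out, not all of them of mucin-type chains. Of 14 measured 3 were at least 2-fold lower and 1 higher (median -0.11). Relative to the median gene 4 were lower and 0 higher. Among all measured genes 5.25% were lower and 23.1% higher, or 10.2% and 13.5% relative to the median gene. Abo, the blood group A and B transferase, stood at 13.1 against 3.36 TPM (3.9-fold lower), and Gal3st2, which sulfates galactose of mucin chains, at 46.0 against 13.6 TPM (3.39-fold lower). Gal3st1, the sulfatide enzyme, stood at 56.6 against 51.8 TPM, and Casd1, which acetylates sialic acid, at 30.1 against 39.1 TPM. B3galnt2 had the highest ratio at 5.68 against 12.9 TPM, followed by B3gntl1 at 4.06 against 7.46 TPM.

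Markers of cell types differed along with these genes. The counts below stand beside 5.25% of all measured genes at least 2-fold lower and 23.1% higher, or 10.2% and 13.5% relative to the median gene. Of 9 measured enterocyte markers 6 were at least 2-fold lower and 1 higher (median -1.17), and the list summed to 7609 against 3683 TPM. Among them Car4 stood at 2975 against 816 TPM, Aqp8 at 836 against 227 TPM and Slc15a1 at 45.6 against 8.6 TPM, while Fabp2 stood at 135 against 757 TPM. Of 15 goblet markers 4 were at least 2-fold lower and 0 higher (7 lower relative to the median gene, median -0.39, summed level 26266 against 19192 TPM). The 4 lower genes were Zg16 (8315 against 3413 TPM), Tff3 (2795 against 993 TPM), Fcgbp (2414 against 922 TPM) and Bcas1 (149 against 56.7 TPM). The secretory fate factors Atoh1 (66.3 against 50.6 TPM) and Spdef (75.6 against 99.6 TPM) were within 2-fold. Klk1 had the highest ratio of the list (911 against 1791 TPM). Myeloid markers (5 of 8 lower, median -1.35) and T and NK cell markers (3 of 9 lower, 9 of 9 relative to the median gene, median -0.93) summed to 48.2 against 16.1 TPM and 66.8 against 27.4 TPM. Fibroblast and muscle markers had 4 of 8 genes at least 2-fold higher and 2 lower, and their summed level was 60.5 against 292 TPM, most of the difference from Vim (20.9 against 166.8 TPM) and Col1a2 (3.76 against 64.4 TPM). Also at least 2-fold higher were Dcn (13.6 against 34.85 TPM) and Pdgfrb (2.68 against 12.41 TPM). The fibroblast genes Col1a1 (7.95 against 8.05 TPM) and Col3a1 (5.73 against 3.18 TPM) were within 2-fold, and Pdgfra stood at 0.06 against 0.71 TPM. The 2 lower genes were the muscle genes Acta2 (4.06 against 0.81 TPM) and Des (1.77 against 0.52 TPM). Of the Paneth list 3 of 6 genes were measured, 2 of them higher and 1 lower (median 1.33), and Lyz1, Defa24 and Defa30 were below the floor. Stem cell markers had 2 of 10 higher and 1 lower (median 0.25), and the 3 measured enteric neuron and glia markers were within 2-fold (median 0.17). B and plasma cell markers had 0 measured genes, and endothelial markers 2, Eng at 0.47 against 2.89 TPM (higher) and Pecam1 at 0.98 against 1.1 TPM, while Cdh5 lay below the floor. The part of these cell types in the enzyme differences was not tested.

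**Figure D4:**
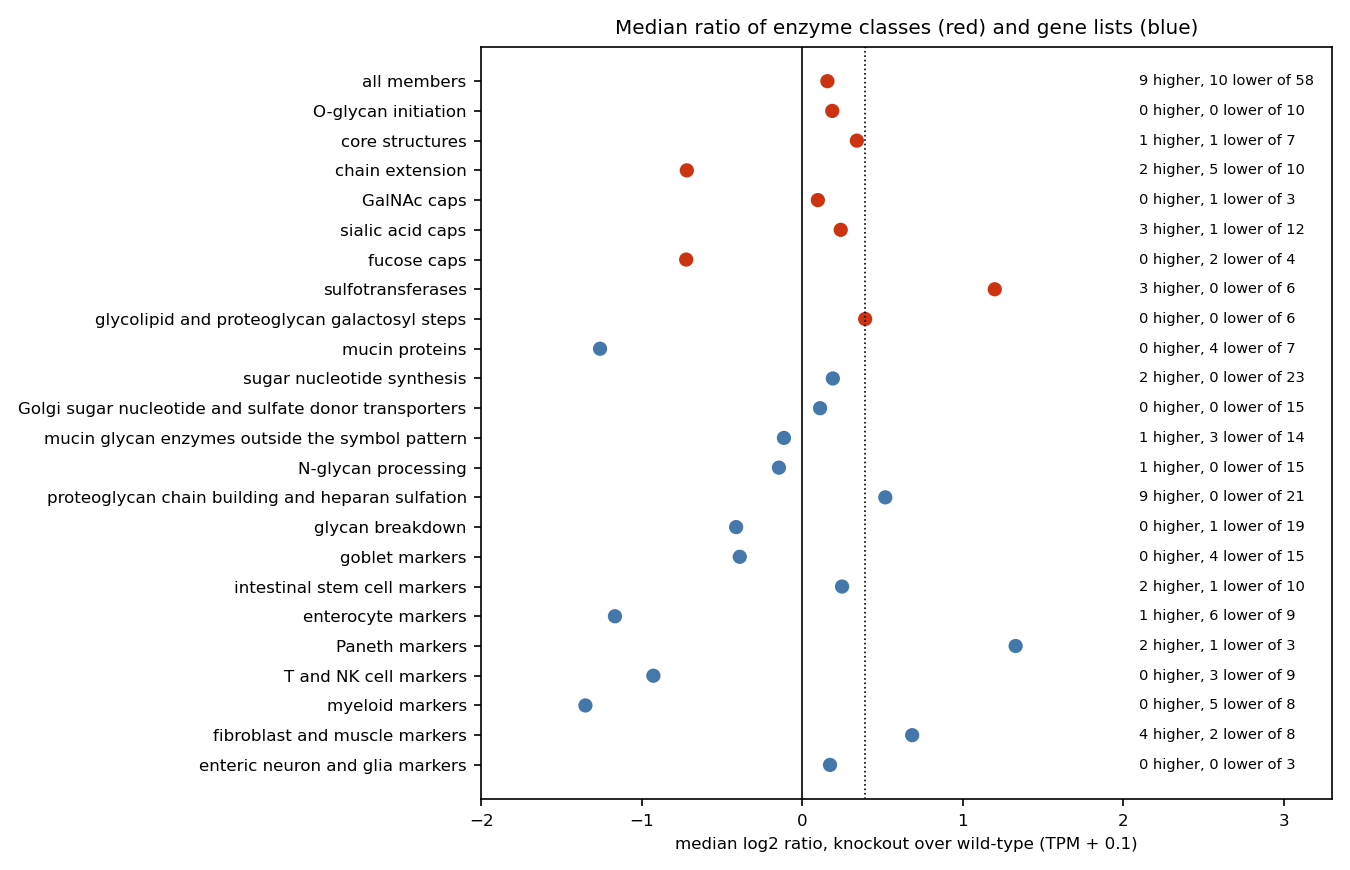
Median log2 ratio, knockout over wild-type, of the measured genes of each enzyme class (red) and each other gene list with at least 3 measured genes (blue), with the counts at least 2-fold higher and lower; the dotted line is the median measured gene. Among those left of 0 are chain extension (-0.72), fucose caps (-0.72), mucin proteins (-1.26), and the enterocyte (-1.17), myeloid (-1.35) and T and NK cell markers (-0.93). Paneth markers (1.33) and sulfotransferases (1.20) lie to the right. The sulfotransferase median includes Chst1, Chst11 and Chst14, which reached the floor only through the knockout library, and the summed level of that class had the opposite sign (log2 ratio -0.71).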

How the data were processed

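The authors deposited 1 table with FPKM and TPM for each of 2 libraries, per the file headers, rounded to 2 decimals. Bowtie2, RSEM, DESeq2 and the build mm10 are named, without versions or roles, in the submitters' processing notes. Strandedness of the libraries is not given in the sources used here. RSEM apportions reads that match several genes, so values of close copies or overlapping genes are uncertain. Of 18068 lines 1 held no values and was left out, and 0 value columns were left out. Both TPM columns sum to 1000000, so abundant genes lower the others.

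Ratios used TPM, a pseudocount of 0.1, a floor of a mean of 1 TPM and a 2-fold threshold. With 1 library per group no p-value was computed, and no interval, since no counts were used. Depth was estimated by placing low TPM values on whole reads over annotated transcript lengths: 55.2% of 261 genes (wild-type) and 53.8% of 314 (knockout) lay within the tolerance. These shares are the highest over the depths and length corrections tried. Chance gives 30% at a fixed depth and more for such a maximum, so the gap to 30% overstates the support for the depths. A limit of 0.05 in place of 0.1 reads on the rounding error, tried after the data were seen, left 174 and 74 genes and moved the knockout estimate to 35250000 reads, so no value rests on that depth. Positions and promoters came from RefSeq GRCm38.p6 by gene ID, which matched all 89 genes, and promoters were held for 42 of 58 measured genes. Calculations used Python 3.11.15, pandas 2.3.3 and NumPy 2.4.6, and the ratio, scaling and depth steps were tested on simulated data.

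Members, enzyme classes, gene lists and motifs were chosen with earlier results of these data known, and the ranges of abundance after these values were seen. Every member is named. From each gene list the 2 highest, 2 lowest and up to 2 most abundant measured genes were eligible, and further genes were named after their values were seen, among them markers. The values of 1 gene of these lists are not reported here. A planned comparison of protein sequences was not run, since no protein sequences were used here. Alternatives were the pseudocount, floor, scaling, unit, threshold, subset and mean.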

Additional observations from a re-analysis of the deposited data

How the results depend on the processing

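The 10 members at least 2-fold lower stayed so under pseudocounts of 1 and 0.01, a floor of 5 TPM, no floor, FPKM, and the trimmed mean, median gene and upper quartile scalings, whose shifts were 0.39, 0.39 and 0.33. Of the 9 higher members 7 stayed so under each scaling and under a pseudocount of 1, and 3 with a floor of 5 TPM, where fewer members remain. From FPKM 6 of the 9 passed the floor and stayed higher, and B4galnt1 was added (log2 ratio 1.05), for a count of 7. A 1.5-fold threshold gave 15 higher and 13 lower, and a 4-fold threshold 4 higher and 2 lower, by construction. Over both pseudocounts, the 3 scalings and FPKM, 10 lower and 5 higher members kept their call in all 6 settings, the latter being Gcnt4, B4galt2, St3gal2, St3gal5 and Chst14. Except for Gcnt4, these higher members reached the floor only through the knockout library, so their kept calls carry no weight as to direction. Small ratios turned sign in 13, 13 and 10 members under the trimmed mean, median gene and upper quartile scalings and in 1 from FPKM. The median over members was 0.16, ran from 0.08 (floor of 5 TPM) to 0.19 without rescaling, and was -0.24, -0.23 and -0.17 under the scalings, which subtract the shift. It was 0.13 over the 42 measured genes classed as mucin-type alone, of which 6 were higher and 9 lower. That class is broad: it holds B3gnt5 (lower), described above for lacto-series glycolipids, and Chst1 (higher), described above for keratan sulfate. The log2 ratios of low genes depended on the pseudocount: with a pseudocount of 1 they were 3.07 for B4galt2, 3.19 for St3gal5 and 1.52 for Chst1. The depth estimate, under a rounding limit added after the data were seen, stayed at 18500000 reads for the wild-type library and went from 17500000 to 35250000 for the knockout library. No paired analysis was possible because each genotype had 1 library, and no library could be left out.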

Other observations

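Other glycan pathways differed unevenly between the libraries. Of 21 measured genes that build proteoglycan chains or sulfate heparan 9 were at least 2-fold higher in the knockout library and 0 lower (median log2 ratio 0.52), or 5 and 0 relative to the median gene. Of all measured genes 23.1% were higher, or 13.5% relative to the median gene, and 38.9% of those with a mean between 1 and 10 TPM. Dse, Dsel and Hs3st3b1, all counted as higher, reached the floor only through the knockout library. Dse, the dermatan sulfate epimerase, stood at 0.16 against 4.11 TPM (wild-type against knockout, as in all pairs here), and Csgalnact2, which starts chondroitin chains, at 1.92 against 13.4 TPM (6.97-fold higher). Hs6st1, a heparan sulfotransferase, stood at 110.1 against 81.1 TPM, Fam20b, the kinase of the linker xylose, at 85.6 against 79.3 TPM, and Xylt1, which adds that xylose, at 2.88 against 1.95 TPM. N-glycan processing was closer to equal, with 1 of 15 genes at least 2-fold higher, the mannosidase gene Man2a2 at 3.7 against 13.8 TPM, and 0 lower (median -0.15). Its branching enzymes differed less, with Mgat4b at 305 against 216 TPM, Mgat4c at 170.3 against 306 TPM, Mgat4a at 81.0 against 56.4 TPM and Mgat5 at 37.1 against 21.9 TPM.

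Lysosomal enzymes of glycan breakdown were mostly lower in the knockout library without passing 2-fold. Past 2-fold, 1 of 19 was lower and 0 higher (median -0.41), or 6 lower relative to the median gene. Among all measured genes 5.25% were lower, or 10.2% relative to the median gene. The sialidase gene Neu1 stood at 139.6 against 71.4 TPM and the fucosidase gene Fuca1 at 295 against 162 TPM, while Idua (5.31 against 9.7 TPM) and Ids (9.57 against 16.7 TPM) had the highest ratios. What underlies these differences was not tested.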
